A study of Homo sapiens with 38 samples.

Results

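Interleukin 1 beta (IL1B) raised 99 genes within 2 h in A549 cells that had lost most of that rise by 10 h, and these early transient genes are described here. A549 cells derive from a human adenocarcinoma of the lung and resemble cells of the alveolus. The genes were chosen by the group means of the Control arrays. A gene was taken if its log2 level at 2 h lay at least 1 above that at 0 h and if its change at 10 h was below 0.5 times its change at 2 h. Of 11893 genes with 1 symbol, 272 met the first condition and 119 met both. Symbols with any of the starting letters named in the rule were then dropped. These letters cover chemokine, interleukin 1 and 6, NF-kB, TNF, AP-1 and MAP kinase phosphatase names. They also cover Krueppel-like, solute carrier, adhesion, matrix and small nucleolar RNA names, ATF3 and IRF1. Dropped genes include ATF3, FOSL1, DUSP6, KLF6, IRF1, SNORA28 and IL15, which shares its first letters with interleukin 1. This step removed 20 genes and left 99. All levels and differences below are on the log2 scale, on which a difference of 1 is a 2-fold difference.

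The study compared cells depleted of ORMDL3, an endoplasmic reticulum protein that restrains sphingolipid synthesis, with Control cells. The knockdown arm received a pool of siRNAs against ORMDL3. Silencing lasted 48 h, serum was then withdrawn for 24 h, and 1 ng/ml IL1B was added. The cells were of high passage number. The sources used here do not say how Control cells were transfected. RNA was taken at 0 h (untreated) and at 2, 4, 8 and 10 h of IL1B. There were 10 groups and 19 arrays per arm. A group had 4 arrays, or 3 in the case of Control at 8 h and of knockdown at 0 h. No later hour had an untreated array, so changes from 0 h cannot be told apart from those of time in culture. Nothing in the labels calls the replicates separate cultures, so a p-value here speaks only of the spread among these arrays, which may be technical.

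IL1B binds a receptor that acts through adaptor proteins and ubiquitin ligases to activate NF-kB and the MAP kinases. The first genes to respond are transcribed from factors already present in the cell and include activators, signalling proteins and their own inhibitors. Many such transcripts are short-lived, so their levels can fall soon after transcription slows. In airway epithelium this response is known for recruiting and instructing leukocytes.

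ORMDL3 lay between 5.00 and 5.57 over the 19 knockdown arrays and between 6.78 and 7.77 over the 19 Control arrays, so the arms did not overlap. All 8 epithelial markers examined were measured, and their mean level per array lay between 9.45 and 10.06 in Control and between 9.52 and 10.10 in knockdown. The median over arrays of single epithelial markers ran from 6.31 for CLDN4 to 13.01 for KRT8. Of markers of other cells, 3 of 7 for leukocytes, 1 of 6 for fibroblasts and 1 of 5 for endothelium were measured. The median over arrays ran from 6.69 for ITGAM to 10.15 for CD68 among those of leukocytes. It was 6.79 for COL1A1 of fibroblasts and 6.34 for CDH5 of endothelium. Array medians lay between 8.02 and 8.19. Precision is bounded by how many arrays a group had.

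The Control changes that chose the genes are a description and were not tested. At 2 h they ran from 1.00 for LRRC1 to 4.84 for STX11, with a median of 1.52, and at 10 h the median was 0.43. The genes just inside the first condition were LRRC1 (1.00), ANKRD33B (1.00), NFATC1 (1.01) and PIM2 (1.01), and those just outside were CHST2 (0.998), PISD (0.996), TICAM1 (0.989) and PIGA (0.983). The change at 10 h over that at 2 h was 0.490 for STX11, 0.482 for MFSD2A, 0.481 for RIMKLB and 0.475 for MB21D2, just inside the second condition. C2CD4A (0.500), LIF (0.501), HELB (0.506) and SOX2 (0.514) lay just outside it. With any 1 Control array of 0, 2 or 10 h left out, 81 of the 99 genes were always kept and 18 were lost at least once.

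In the knockdown arrays, which the choice of genes did not use, IL1B raised all 99 genes at 2 h by limma with Benjamini-Hochberg adjusted p under 0.05. Of all 14488 probe sets, 9.57% were called up in that comparison. The rises ran from 0.60 ± 0.10 (SE) for LRRC1 to 5.30 ± 0.16 for PTX3, with a median of 1.54, against -0.05 for all probe sets. The highest adjusted p among the 99 was that of IRF8 (0.00127). From 2 to 10 h in the knockdown arm all 99 genes fell, where 15.1% of all probe sets were called down. Those falls had a median of -1.31 and ran from -0.36 ± 0.09 for GRAMD2B to -3.63 ± 0.10 for RASSF5. These 2 comparisons share the knockdown 2 h arrays. In RNA from whole cultures, a change in the share of cells that express a gene and a change in RNA per cell cannot be told apart.

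The median of the 99 changes from 0 h was 1.52, 1.5, 0.45 and 0.43 at 2, 4, 8 and 10 h in Control, and 1.54, 1.27, 0.31 and 0.34 in knockdown. Over all probe sets these medians lay between -0.05 and 0.00 in both arms. The highest group mean of a gene fell at 2 h for 53 genes and at 4 h for 46 in Control, and at 2 h for 65 and at 4 h for 34 in knockdown. No gene had its highest mean at 0, 8 or 10 h in either arm. In Control the choice of genes had already excluded 0 and 10 h.

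**Figure D1:**
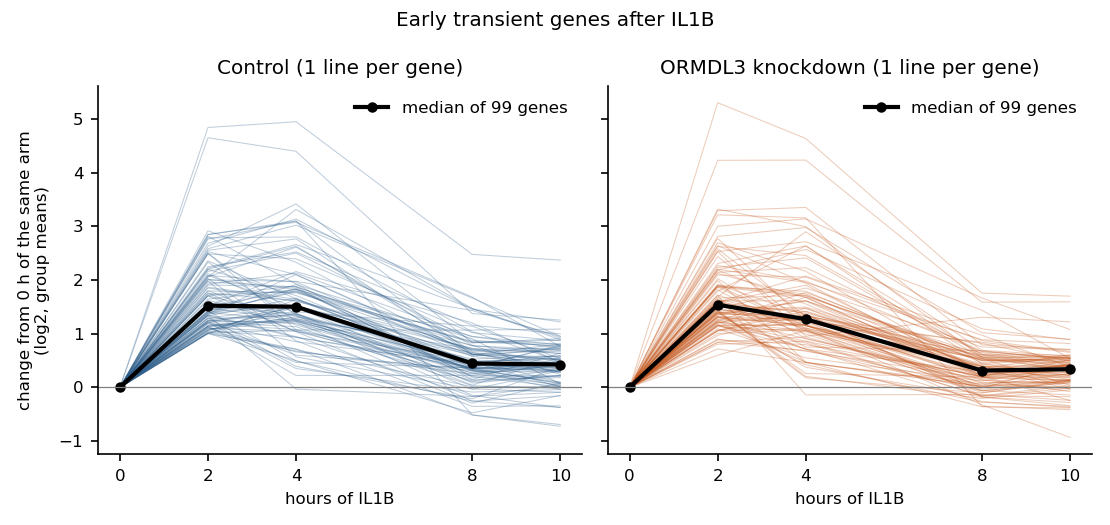
Change of each of the 99 early transient genes from 0 h of the same arm (log2, group means) against hours of IL1B, for Control on the left and ORMDL3 knockdown on the right; thin lines are genes and the black line is their median. The median stands at 1.52 and 1.54 at 2 h and at 0.43 and 0.34 at 10 h.

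The genes had been chosen for a shared rise and fall in Control. Their promoters were searched for short motifs in the RefSeq table of GRCh38.p14, from 250 bases before to 50 after the annotated start, on both strands. The table held 76 of the 99 genes. The kB motif, the pattern bound by NF-kB dimers, was found in 12 of the 76 promoters (15.8%), in 6.9% of the 9531 promoters of measured genes and in 5.7% of all 27305. Among genes that IL1B raised at 2 h but that stayed raised at 10 h, 13 of 89 promoters (14.6%) held it. The AP-1 motif TGANTCA was found in 3 promoters of the early transient genes (3.9%), in 4.6% of those of measured genes, in 7.8% of all and in 12 (13.5%) of those of the genes that stayed raised. The letters TATAAA were found in 8 (10.5%), against 5.9% of measured genes, 12.0% of all and 11.2% of the genes that stayed raised. The cyclic AMP response motif TGACGTCA was found in 2 (2.6%), against 3.3% of measured genes, 2.0% of all and 2.2% of the genes that stayed raised. The CArG box of serum response factor was found in 1 (1.3%), against 1.0% of measured genes, 1.3% of all and none of the genes that stayed raised. These matches are descriptions of letters and not sites of binding. The 7 stretches below come from genes described in the results and show the kB match in capitals, 5' to 3' on the strand of the gene. They lie at chr3:157436724-157436793 (plus strand) for PTX3, chr20:45348482-45348551 (minus) for SDC4, chr5:171419503-171419572 (plus) for FGF18, chr2:60881498-60881567 (plus) for REL, chr12:56338759-56338828 (plus) for IL23A, chr1:100719650-100719719 (plus) for VCAM1 and chr10:30433962-30434020 (plus) for MAP3K8.
PTX3: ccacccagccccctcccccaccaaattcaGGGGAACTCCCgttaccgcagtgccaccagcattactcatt
SDC4: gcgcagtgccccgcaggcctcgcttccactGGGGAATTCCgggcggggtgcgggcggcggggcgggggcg
FGF18: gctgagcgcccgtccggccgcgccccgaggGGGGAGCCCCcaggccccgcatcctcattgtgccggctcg
REL: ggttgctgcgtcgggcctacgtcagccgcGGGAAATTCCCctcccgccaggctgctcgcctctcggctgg
IL23A: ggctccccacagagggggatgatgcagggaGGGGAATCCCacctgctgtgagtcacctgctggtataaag
VCAM1: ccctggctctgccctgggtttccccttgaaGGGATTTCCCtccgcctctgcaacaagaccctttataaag
MAP3K8: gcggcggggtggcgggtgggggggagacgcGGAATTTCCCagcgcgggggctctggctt
In PTX3 and REL the capitals hold 2 overlapping matches, and in the other 5 stretches 1. The match ends 87 bases before the start in PTX3, 88 in SDC4, 105 in FGF18, 37 in REL, 86 in IL23A, 53 in VCAM1 and 20 in MAP3K8.

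Regulators of NF-kB and of the IL1 pathway gave 7 of the 99 genes, out of 43 measured on a list of such regulators. They were TIFA and TRAF1, both adaptors that bind TRAF proteins or receptors, REL, an NF-kB subunit that carries the kB letters above in its own promoter, MAP3K8, a kinase upstream of ERK, BIRC2, a ubiquitin ligase of the same receptor complexes, NOD2, a sensor of bacterial cell wall fragments, and ANKRD33B, an ankyrin-repeat protein on the list for which no role in the pathway is known here. On the whole list, 29 of 43 rose at 2 h in knockdown and 1 fell. Of all probe sets 13.8% were called down in that comparison, beside the 9.57% called up. Each list count, here and below, includes its early transient genes, which all rose. Without them 22 of 36 rose here, 27 of 82 transcription regulators, 14 of 41 feedback inhibitors and 4 of 126 noncoding genes. The other lists then gave 17 of 45 secreted factors, 21 of 55 surface proteins and 27 of 56 enzymes and matrix-linked proteins. Chromatin and ubiquitin enzymes gave 22 of 54 and survival genes 18 of 51. TRAF1 read 5.34, 5.25 and 5.49 in the knockdown arrays at 0 h, 8.55, 8.74, 8.50 and 8.81 at 2 h, 8.81, 8.69, 8.59 and 8.75 at 4 h, 6.25, 6.28, 5.82 and 6.26 at 8 h, with 6.16, 6.28, 5.60 and 6.23 at 10 h. The Control arrays read 5.75, 5.59, 5.76 and 5.61 at 0 h, 8.29, 8.03, 8.28 and 8.31 at 2 h, 8.50, 8.19, 8.44 and 8.63 at 4 h, 6.16, 6.46 and 6.25 at 8 h, with 6.32, 6.17, 6.32 and 5.99 at 10 h. In both arms the 2 and 4 h arrays lay above all others, and TRAF1 rose by 3.29 ± 0.13 at 2 h in knockdown (limma adjusted p = 2.49e-20). Its change from 2 to 4 h was 0.06 ± 0.12 (adjusted p = 0.794).

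TIFA read 6.42, 6.63 and 6.22 in knockdown at 0 h, 9.01, 9.03, 9.18 and 9.03 at 2 h, 8.42, 8.26, 8.62 and 8.16 at 4 h, 6.66, 6.59, 6.79 and 6.70 at 8 h, with 6.83, 6.91, 7.04 and 6.54 at 10 h. In Control it read 6.45, 6.37, 6.31 and 6.40 at 0 h, 9.23, 9.40, 9.39 and 9.17 at 2 h, 8.68, 9.01, 8.67 and 8.47 at 4 h, 6.88, 6.99 and 7.11 at 8 h, with 7.09, 7.21, 7.38 and 7.07 at 10 h. Its 2 h arrays lay above its 4 h arrays and these above those of 8 and 10 h in both arms. TIFA rose by 2.64 ± 0.12 by 2 h in knockdown and fell by 0.70 ± 0.11 from 2 to 4 h (limma adjusted p = 1.17e-05). The knockdown means of REL were 8.48 at 0 h, 10.91 at 2 h, 9.63 at 4 h, 8.47 at 8 h and 8.91 at 10 h, and it fell by 1.28 ± 0.08 from 2 to 4 h (adjusted p = 7.09e-13). MAP3K8 rose by 1.89 ± 0.10 and BIRC2 rose by 1.64 ± 0.10 at 2 h, and they fell by 0.75 ± 0.09 and fell by 0.37 ± 0.09 from 2 to 4 h. NOD2 differed from these, since it rose by 0.53 ± 0.13 from 2 to 4 h (adjusted p = 0.00413). Of the 7 genes, 5 fell, ANKRD33B among them, and 1 rose between those hours. Of all probe sets 6.81% were called down and 7.82% up there.

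**Figure D2:**
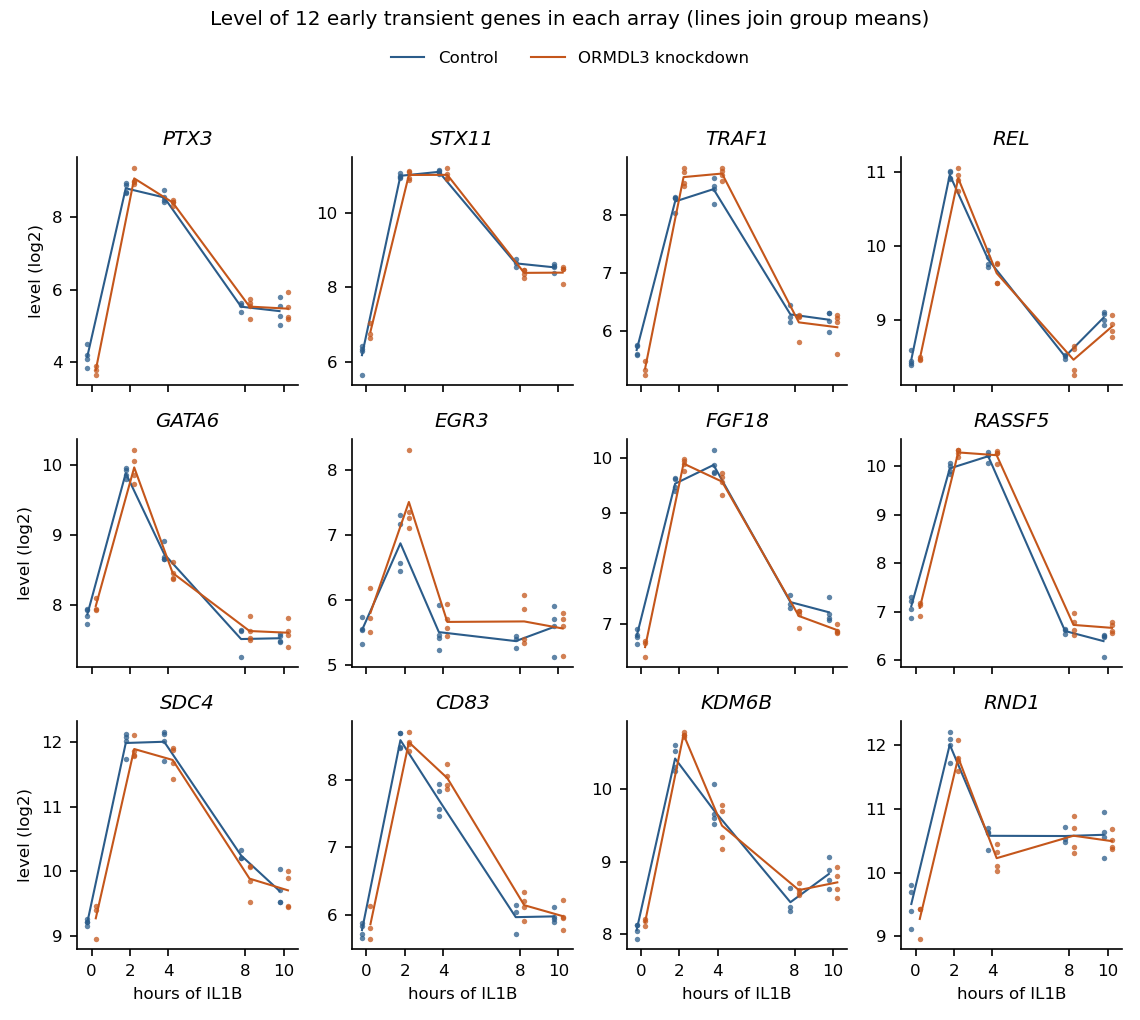
Log2 level in each array (points) of 12 early transient genes against hours of IL1B, with lines through the group means of Control (blue) and ORMDL3 knockdown (orange); points of the arms are set slightly apart. In every panel the knockdown arrays at 2 h lie above those at 0 h, and STX11 and RASSF5 stay near their peak at 4 h while REL, GATA6, EGR3 and RND1 have fallen.

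Transcription regulators gave 9 genes of 91 measured on their list: ETS1, SNAI2, GATA6, MAFF, IRF8, EGR3, HIVEP1, ETV3 and NFATC1. On the whole list 36 rose and 13 fell at 2 h in knockdown. ETS1, the founding member of the ETS family, read 8.06, 8.09 and 8.18 in knockdown at 0 h, 10.38, 10.43, 10.26 and 10.44 at 2 h, 9.98, 10.08, 10.09 and 10.20 at 4 h, 8.81, 8.78, 8.57 and 8.93 at 8 h, with 8.76, 8.59, 8.32 and 8.91 at 10 h. In Control its arrays read 7.68, 7.74, 7.79 and 7.98 at 0 h, 10.26, 10.28, 10.35 and 10.23 at 2 h, 10.07, 10.29, 10.14 and 10.26 at 4 h, 8.72, 8.96 and 8.77 at 8 h, with 8.61, 8.85, 8.56 and 8.64 at 10 h. Every later array lay above the 0 h arrays of its arm, and ETS1 was still 0.54 ± 0.10 above 0 h at 10 h in knockdown (limma adjusted p = 9.49e-05). SNAI2, a repressor known from epithelial-mesenchymal transition, read 7.53, 7.25 and 7.10 in knockdown at 0 h, 9.62, 9.26, 8.49 and 8.69 at 2 h, 8.62, 8.41, 8.17 and 8.54 at 4 h, 7.89, 7.87, 7.35 and 7.66 at 8 h, with 7.70, 7.23, 6.97 and 7.29 at 10 h. Its Control arrays read 7.31, 6.72, 7.26 and 6.89 at 0 h, 9.44, 9.30, 8.82 and 8.96 at 2 h, 8.81, 8.46, 8.28 and 8.57 at 4 h, 7.41, 7.66 and 7.58 at 8 h, with 7.70, 7.19, 6.78 and 6.88 at 10 h. By 10 h the SNAI2 arrays overlapped those of 0 h in both arms, and the knockdown difference of 10 h from 0 h was 0.01 ± 0.22 (adjusted p = 0.99).

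The transcription regulators EGR3 and GATA6 had short pulses. EGR3, an immediate-early zinc-finger factor, had knockdown means of 5.80 at 0 h, 7.51 at 2 h, 5.66 at 4 h, 5.67 at 8 h and 5.56 at 10 h. It rose by 1.71 ± 0.24 at 2 h in knockdown and fell by 1.85 ± 0.22 from 2 to 4 h (limma adjusted p = 2.18e-07), the largest fall of the 99 genes over those hours. GATA6, a factor of endoderm and lung epithelium, had knockdown means of 7.98 at 0 h, 9.97 at 2 h, 8.45 at 4 h, 7.62 at 8 h and 7.60 at 10 h and fell by 1.51 ± 0.10 from 2 to 4 h. HIVEP1, a zinc-finger protein that binds kB-like sequences, fell by 1.25 ± 0.11, and NFATC1, a calcium-regulated factor, fell by 0.81 ± 0.08 over the same hours. Of the 9 regulators 7 fell from 2 to 4 h in knockdown, where 6.81% of all probe sets were called down. For SNAI2 that difference was -0.58 ± 0.21 (adjusted p = 0.0542). The fall of ETS1 over those hours was -0.29 ± 0.09 (adjusted p = 0.0298), and its call was lost without 6 of the 8 arrays, each left out singly. ZBTB10, a zinc-finger repressor counted on a list of 373 zinc-finger genes with 2 of the 99 genes, rose by 1.44 ± 0.09 at 2 h and fell by 1.23 ± 0.09 from 2 to 4 h. Its knockdown arrays read 7.35, 7.43 and 7.18 at 0 h, 8.63, 8.72, 8.70 and 8.99 at 2 h, 7.43, 7.60, 7.64 and 7.44 at 4 h, 6.94, 7.34, 7.04 and 7.14 at 8 h, with 7.32, 7.12, 7.30 and 7.36 at 10 h, so that the 2 h arrays stood above all others.

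Of genes that limit signals, DUSP6 and DUSP8, phosphatases of the MAP kinases, met both conditions and had been dropped by name, so the genes left do not show how many limiters rose early. ZFP36 (tristetraprolin), which binds AU-rich elements and speeds the decay of cytokine transcripts, was 1 of 25 measured genes of mRNA decay. It read 10.82, 10.41 and 9.92 in knockdown at 0 h, 12.37, 12.15, 11.99 and 11.52 at 2 h, 11.27, 11.18, 11.09 and 11.00 at 4 h, 11.53, 11.19, 10.88 and 10.66 at 8 h, with 11.16, 10.91, 10.96 and 10.55 at 10 h. Control ZFP36 arrays read 10.56, 10.74, 10.93 and 10.15 at 0 h, 11.96, 11.87, 11.71 and 11.74 at 2 h, 11.42, 11.12, 11.17 and 11.07 at 4 h, 10.91, 11.11 and 10.82 at 8 h, with 11.57, 11.03, 11.12 and 10.60 at 10 h. In Control the 2 h arrays were the highest, and in knockdown the lowest 2 h array lay just below the highest later one. ZFP36 fell by 0.87 ± 0.20 from 2 to 4 h in knockdown (limma adjusted p = 0.00184). After that no further fall was called, with -0.07 ± 0.20 (adjusted p = 0.86) from 4 to 8 h in knockdown and -0.25 ± 0.21 (adjusted p = 0.476) in Control. On a list of 43 feedback inhibitors, of which 16 rose and 12 fell at 2 h in knockdown, the early transient genes were SMURF2, a ubiquitin ligase of TGF-beta signalling, and SPRY4, which limits receptor tyrosine kinase signals to ERK. SMURF2 read 10.19, 9.98 and 10.25 in knockdown at 0 h, 11.24, 11.12, 11.36 and 11.45 at 2 h, 11.23, 11.02, 11.38 and 11.54 at 4 h, 10.20, 10.32, 10.20 and 10.57 at 8 h, with 10.35, 10.20, 10.33 and 10.61 at 10 h. In SMURF2 the arrays of 2 and 4 h lay above all others of the arm. SPRY4 fell by 1.15 ± 0.14 from 2 to 4 h in knockdown, with a difference of 8 h from 4 h of -0.07 ± 0.14 (adjusted p = 0.806).

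A microRNA gene of the same course was MIR221, studied in epithelial tumours. The sources used here do not say whether the probe set reads the mature microRNA or its longer precursor. The mature sequence in RefSeq is shown for identity, with its seed (bases 2 to 8) in capitals. It lies on the minus strand at chrX:45746180-45746202 of GRCh38.p14, and its seed is shared with hsa-miR-222-3p.
hsa-miR-221-3p: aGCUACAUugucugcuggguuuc
MIR221 read 6.78, 5.90 and 5.52 in knockdown at 0 h, 7.70, 7.98, 7.85 and 7.25 at 2 h, 7.19, 6.42, 6.97 and 8.01 at 4 h, 5.88, 5.79, 5.26 and 6.06 at 8 h, with 4.27, 5.65, 5.89 and 4.75 at 10 h. The Control arrays gave 5.36, 5.73, 5.56 and 5.98 at 0 h, 7.66, 7.52, 7.22 and 7.26 at 2 h, 6.51, 5.74, 7.09 and 7.43 at 4 h, 5.79, 5.10 and 5.20 at 8 h, with 6.05, 5.14, 5.89 and 5.92 at 10 h. Its arrays of 2 h lay above those of 0 h in both arms. It rose by 1.63 ± 0.36 at 2 h in knockdown (limma adjusted p = 0.000994) and fell by 2.56 ± 0.34 from 2 to 10 h (adjusted p = 3.19e-07). Of 128 measured noncoding genes on the list 6 rose at 2 h in knockdown and 13 fell, and the early transient genes were MIR221 and LINC00852.

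Secreted factors and ligands gave 6 genes of 51: FGF18, INHBA, IL23A, JAG1, IL34 and FGF5. On that list 23 rose and 10 fell at 2 h in knockdown. FGF18, a fibroblast growth factor of lung and skeletal development, read 6.40, 6.69 and 6.64 in knockdown at 0 h, 9.98, 9.77, 9.94 and 9.89 at 2 h, 9.57, 9.32, 9.73 and 9.66 at 4 h, 7.18, 6.92, 7.24 and 7.23 at 8 h, with 6.83, 6.84, 7.0 and 6.86 at 10 h. In Control it read 6.76, 6.63, 6.79 and 6.90 at 0 h, 9.47, 9.61, 9.41 and 9.64 at 2 h, 9.72, 9.74, 10.15 and 9.87 at 4 h, 7.29, 7.53 and 7.36 at 8 h, with 7.49, 7.06, 7.18 and 7.10 at 10 h. The 2 and 4 h arrays stood more than 1 above every other array of their arm, and FGF18 rose by 3.32 ± 0.11 at 2 h in knockdown (limma adjusted p = 1.23e-22). INHBA, which encodes the subunit of activin A, read 4.54, 4.53 and 4.94 in knockdown at 0 h, 7.48, 7.54, 7.12 and 7.77 at 2 h, 7.70, 7.51, 7.32 and 8.05 at 4 h, 5.99, 5.64, 5.42 and 5.69 at 8 h, with 5.54, 5.29, 5.55 and 5.87 at 10 h. Its Control arrays read 4.61, 4.75, 4.97 and 4.89 at 0 h, 7.48, 7.28, 7.62 and 7.35 at 2 h, 8.22, 8.28, 8.18 and 8.20 at 4 h, 5.69, 5.55 and 5.68 at 8 h, with 6.05, 5.67, 5.43 and 5.59 at 10 h. All 10 h arrays of INHBA lay above all 0 h arrays, by 0.90 ± 0.16 in knockdown (adjusted p = 4.69e-05). JAG1, a ligand of Notch receptors that stays on the cell surface, rose by 1.23 ± 0.08 at 2 h in knockdown. IL34, a ligand of the CSF1 receptor, rose by 0.97 ± 0.11 at 2 h and rose by 0.39 ± 0.10 from 2 to 4 h.

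Surface proteins gave 10 genes of 65: CD83, SDC4, CD274, VCAM1, CD69, F3, PTGER4, IFNGR2, BDKRB1 and CXCR4. Of the 65, 31 rose and 7 fell at 2 h in knockdown. CD83, known from activated antigen-presenting cells, read 5.81, 5.65 and 6.13 in knockdown at 0 h, 8.55, 8.53, 8.42 and 8.71 at 2 h, 8.06, 7.87, 7.93 and 8.24 at 4 h, 6.21, 6.11, 5.91 and 6.34 at 8 h, with 5.98, 5.78, 5.96 and 6.21 at 10 h. CD83 in Control read 5.72, 5.66, 5.83 and 5.88 at 0 h, 8.47, 8.69, 8.70 and 8.49 at 2 h, 7.94, 7.46, 7.57 and 7.83 at 4 h, 5.72, 6.14 and 6.04 at 8 h, with 6.11, 5.89, 5.96 and 5.95 at 10 h. By 10 h the CD83 arrays overlapped those of 0 h in knockdown, with a difference of 10 h from 0 h of 0.12 ± 0.12 (adjusted p = 0.551). SDC4, a heparan sulfate proteoglycan, read 9.40, 9.46 and 8.96 in knockdown at 0 h, 11.87, 12.12, 11.81 and 11.79 at 2 h, 11.92, 11.88, 11.43 and 11.68 at 4 h, 10.07, 10.09, 9.53 and 9.86 at 8 h, with 10.01, 9.90, 9.44 and 9.47 at 10 h. Its Control arrays read 9.26, 9.21, 9.22 and 9.15 at 0 h, 12.01, 12.08, 12.12 and 11.75 at 2 h, 12.02, 12.13, 12.16 and 11.72 at 4 h, 10.21, 10.33 and 10.20 at 8 h, with 9.70, 10.04, 9.52 and 9.52 at 10 h. The arrays of 2 and 4 h overlapped in SDC4 and lay above all others.

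The surface genes did not share one time course. CD69, an early activation lectin of leukocytes, had knockdown means ± SD of 3.58 ± 0.06 (0 h, n = 3) and 5.19 ± 0.28 (2 h, n = 4) and fell by 1.14 ± 0.17 from 2 to 4 h (limma adjusted p = 7.33e-06). PTGER4, a receptor of prostaglandin E, fell by 1.01 ± 0.11, and F3 (tissue factor), the trigger of coagulation, fell by 0.41 ± 0.09 over those hours. CD69 started near the floor, since the lowest probe sets of the knockdown 0 h arrays read 3.58, 3.49 and 3.33. In knockdown 10 h replicates 2 (3.34) and 3 (3.64) CD69 was itself the lowest value, so its levels outside the pulse are poorly resolved. VCAM1, a ligand for leukocyte integrins, rose by 1.79 ± 0.14 at 2 h and rose by 0.85 ± 0.13 from 2 to 4 h (adjusted p = 9.23e-06). Its knockdown means ± SD were 7.19 ± 0.16 (4 h) and 5.00 ± 0.18 (8 h, n = 4 each). CD274, the checkpoint ligand PD-L1, rose by 1.89 ± 0.19 at 2 h, and its difference of 4 h from 2 h was -0.18 ± 0.18 (adjusted p = 0.562). The chemokine receptor CXCR4 rose by 1.47 ± 0.14 at 2 h and rose by 0.39 ± 0.13 from 2 to 4 h, a call that was lost without 6 of the 8 arrays, each left out singly. BDKRB1, the inducible bradykinin receptor, rose by 1.41 ± 0.26 at 2 h.

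The highest rises among the 99 genes belonged to a secreted pattern-recognition protein and a vesicle protein. PTX3, a pentraxin that opsonizes microbes, was counted on a list of 60 enzymes, proteases and matrix-linked proteins, of which 31 rose and 4 fell at 2 h in knockdown. PTX3 read 3.78, 3.89 and 3.65 in knockdown at 0 h, 9.01, 8.98, 8.93 and 9.37 at 2 h, 8.47, 8.42, 8.31 and 8.43 at 4 h, 5.54, 5.74, 5.20 and 5.64 at 8 h, with 5.93, 5.24, 5.52 and 5.20 at 10 h. In Control it read 4.50, 3.82, 4.10 and 4.19 at 0 h, 8.88, 8.68, 8.93 and 8.70 at 2 h, 8.75, 8.46, 8.42 and 8.55 at 4 h, 5.57, 5.63 and 5.39 at 8 h, with 5.54, 5.79, 5.03 and 5.26 at 10 h. The rise of 5.30 ± 0.16 at 2 h in knockdown (limma adjusted p = 1.56e-23) was the largest of the 99 genes, and 1.70 ± 0.16 of it was left at 10 h. PTX3 started close to the floor of the knockdown 0 h arrays, whose lowest probe sets read 3.58, 3.49 and 3.33. The size of its rise is therefore less certain. STX11, a SNARE-type vesicle protein, read 6.74, 6.65 and 7.04 in knockdown at 0 h, 11.12, 10.96, 11.14 and 10.91 at 2 h, 11.05, 10.92, 11.23 and 10.95 at 4 h, 8.36, 8.26, 8.47 and 8.48 at 8 h, with 8.49, 8.08, 8.55 and 8.49 at 10 h. Its Control arrays read 6.33, 5.65, 6.30 and 6.42 at 0 h, 10.95, 10.99, 11.09 and 11.02 at 2 h, 11.16, 11.15, 11.10 and 11.07 at 4 h, 8.76, 8.65 and 8.54 at 8 h, with 8.59, 8.63, 8.57 and 8.40 at 10 h. The 2 and 4 h arrays of STX11 overlapped, and their difference in knockdown was 0.00 ± 0.12 (adjusted p = 0.988).

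PLAT, tissue plasminogen activator, read 8.57, 8.46 and 8.36 in knockdown at 0 h, 11.04, 11.10, 10.75 and 11.09 at 2 h, 11.32, 11.24, 10.88 and 11.26 at 4 h, 9.82, 9.99, 9.64 and 10.15 at 8 h, with 9.06, 9.01, 8.75 and 9.19 at 10 h. PLAT in Control read 8.12, 7.72, 7.60 and 7.62 at 0 h, 10.76, 10.48, 10.55 and 10.65 at 2 h, 10.93, 10.68, 10.80 and 10.95 at 4 h, 9.75, 9.28 and 9.31 at 8 h, with 8.84, 8.37, 8.33 and 8.57 at 10 h. The 8 h arrays lay between those of 4 h and 10 h in both arms. RND1 read 9.42, 9.44 and 8.96 in knockdown at 0 h, 11.76, 12.09, 11.79 and 11.59 at 2 h, 10.45, 10.32, 10.11 and 10.03 at 4 h, 10.71, 10.90, 10.41 and 10.31 at 8 h, with 10.52, 10.69, 10.41 and 10.37 at 10 h. In Control it read 9.70, 9.82, 9.40 and 9.12 at 0 h, 12.11, 12.21, 12.00 and 11.72 at 2 h, 10.63, 10.70, 10.63 and 10.36 at 4 h, 10.48, 10.72 and 10.53 at 8 h, with 10.63, 10.96, 10.56 and 10.23 at 10 h. RND1 fell by 1.58 ± 0.15 from 2 to 4 h in knockdown and then stayed 1.22 ± 0.17 above 0 h at 10 h (limma adjusted p = 7.64e-07).

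Chromatin and ubiquitin enzymes gave 4 genes of 58, KDM6B, USP43, RNF19B and TRIM36, and 26 of the 58 rose and 7 fell at 2 h in knockdown. KDM6B, a histone lysine demethylase, read 8.21, 8.12 and 8.18 in knockdown at 0 h, 10.78, 10.71, 10.74 and 10.74 at 2 h, 9.17, 9.34, 9.69 and 9.77 at 4 h, 8.56, 8.61, 8.55 and 8.71 at 8 h, with 8.50, 8.62, 8.93 and 8.80 at 10 h. Its Control arrays read 8.04, 8.13, 7.94 and 8.13 at 0 h, 10.30, 10.52, 10.24 and 10.60 at 2 h, 9.65, 9.59, 9.52 and 10.07 at 4 h, 8.37, 8.64 and 8.31 at 8 h, with 9.06, 8.62, 8.89 and 8.75 at 10 h. The steps from 0 to 2 h, 2 to 4 h and 4 to 8 h separated its arrays in both arms. TMEM88, another of the 99 genes, lies within 100 kb of KDM6B, and its knockdown means were 6.88 at 0 h, 9.65 at 2 h, 8.12 at 4 h, 7.72 at 8 h and 7.53 at 10 h. USP43, a deubiquitinase, read 6.51, 6.54 and 6.84 in knockdown at 0 h, 8.72, 8.51, 8.60 and 8.77 at 2 h, 7.49, 7.60, 7.71 and 7.87 at 4 h, 6.42, 6.43, 6.56 and 6.71 at 8 h, with 6.77, 6.65, 6.82 and 6.69 at 10 h. KDM6B fell by 1.25 ± 0.12 and USP43 fell by 0.99 ± 0.11 from 2 to 4 h, whereas TRIM36, a ubiquitin ligase, rose by 0.49 ± 0.11.

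Survival genes gave 3 of 54: PMAIP1 (NOXA), a promoter of apoptosis, TP53BP2, a partner of p53, and the kinase PIM2. On that list 21 rose and 14 fell at 2 h in knockdown. PMAIP1 read 9.45, 9.40 and 9.26 in knockdown at 0 h, 10.92, 10.94, 10.87 and 10.89 at 2 h, 10.64, 10.76, 10.61 and 10.56 at 4 h, 9.99, 9.90, 9.79 and 9.85 at 8 h, with 9.95, 9.72, 10.11 and 9.79 at 10 h. TP53BP2 read 8.87, 8.97 and 8.83 at 0 h, 9.94, 9.97, 9.89 and 10.03 at 2 h, 10.03, 10.09, 10.11 and 10.22 at 4 h, 8.85, 9.04, 8.75 and 8.96 at 8 h, with 9.09, 9.03, 8.93 and 9.12 at 10 h. Both stood apart at 2 and 4 h from every other hour of the arm. PMAIP1 rose by 1.54 ± 0.10 (limma adjusted p = 1.2e-14) and TP53BP2 rose by 1.07 ± 0.07 at 2 h (adjusted p = 6.38e-15).

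Of the 99 genes 46 were on none of the gene lists. RASSF5, a Ras-binding regulator of cell adhesion, had the largest fall of the 99 from 2 to 10 h in knockdown, with knockdown means ± SD of 7.08 ± 0.15 (0 h, n = 3), 10.29 ± 0.07 (2 h), 10.23 ± 0.12 (4 h), 6.72 ± 0.20 (8 h) and 6.66 ± 0.11 (10 h, n = 4 for the last 4 hours). Its Control means ± SD were 7.11 ± 0.19, 9.96 ± 0.10, 10.21 ± 0.10, 6.60 ± 0.05 and 6.39 ± 0.22 in the same order of hours (n = 3 at 8 h and 4 at the others). It rose by 3.21 ± 0.11 at 2 h in knockdown and fell by 3.63 ± 0.10 from 2 to 10 h, to a level below that of 0 h (difference -0.41 ± 0.11, limma adjusted p = 0.00397). ICOSLG, which costimulates T cells, rose by 3.00 ± 0.10 at 2 h and was still 1.08 ± 0.10 above 0 h at 10 h. NCR3LG1, a ligand of a natural killer cell receptor, rose by 1.57 ± 0.13 at 2 h.

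From 2 to 4 h in knockdown the 99 genes split. Of them 37 fell, where 6.81% of all probe sets were called down, and 11 rose, where 7.82% of all probe sets were called up. The other 51 were not called, and the median was -0.16 against 0.00 for all probe sets. The differences ran from -1.85 ± 0.22 for EGR3 to 1.21 ± 0.22 for FHIP1A. Behind EGR3 the largest falls were those of RND1 (-1.58 ± 0.15), TMEM88 (-1.54 ± 0.28), GATA6 (-1.51 ± 0.10), REL (-1.28 ± 0.08), KDM6B (-1.25 ± 0.12), HIVEP1 (-1.25 ± 0.11) and ZBTB10 (-1.23 ± 0.09). The rises after FHIP1A were VCAM1 (0.85 ± 0.13), NOD2 (0.53 ± 0.13), TRIM36 (0.49 ± 0.11), PTP4A3 (0.48 ± 0.07), LRRC1 (0.46 ± 0.09), ZNFX1 (0.41 ± 0.08) and IL34 (0.39 ± 0.10). Of the 32 genes named here and called over these hours, 27 kept the call without any 1 array. The calls of GCH1 and ARHGAP31 as rising, like that of CXCR4, were lost without 6 of the 8 arrays, each left out singly, and that of FGF18 as falling (-0.33 ± 0.10) without 4.

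The main descent came between 4 and 8 h. In Control, at hours that the choice of genes did not use, 92 of the 99 genes fell from 4 to 8 h by limma, where 10.6% of all probe sets were called down. None was called up, where 10.5% of all probe sets were. At an unadjusted p under 0.05, the 92 that changed were all falls. The median change was -1.07, against 0.02 for all probe sets, and the largest falls were those of RASSF5 (-3.61 ± 0.11), PTX3 (-3.02 ± 0.16), INHBA (-2.58 ± 0.16), FGF18 (-2.48 ± 0.11), STX11 (-2.47 ± 0.13) and TRAF1 (-2.15 ± 0.13). The 7 genes not called were BDKRB1 (-0.27 ± 0.26), EGR3 (-0.14 ± 0.24), ETV3 (-0.35 ± 0.20), LINC00852 (-0.10 ± 0.21), RND1 (0.00 ± 0.17), SPRY4 (0.00 ± 0.15) and ZFP36 (-0.25 ± 0.21). In knockdown 89 of the 99 fell over those hours, where 12.7% of all probe sets were called down, with a median of -1.03. That knockdown comparison was added after the values had been seen.

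**Figure D3:**
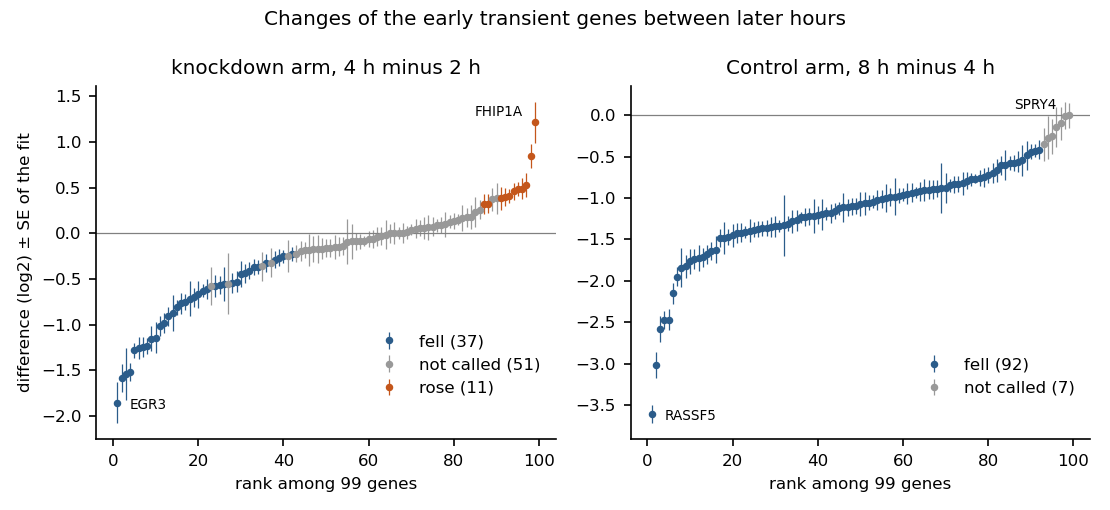
Differences (log2, ± SE of the fit) of the 99 early transient genes in rank order, from 2 to 4 h in knockdown on the left and from 4 to 8 h in Control on the right; blue marks falls, orange rises and grey genes not called at an adjusted p under 0.05. From 2 to 4 h 37 genes fell and 11 rose, and from 4 to 8 h 92 fell and 7 were not called.

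From 8 to 10 h little moved in knockdown, in a comparison also added after the values had been seen. Of the 99 genes 2 rose, where 1.82% of all probe sets did, and 5 fell, where 0.511% did. REL rose by 0.45 ± 0.08 (limma adjusted p = 0.00238), from 8.26, 8.62, 8.33 and 8.66 at 8 h to 8.77, 8.86, 9.07 and 8.95 at 10 h, and these arrays did not overlap. NCOA7, a nuclear receptor coactivator, rose by 0.30 ± 0.07. PLAT fell by 0.90 ± 0.13, PTP4A3 fell by 0.59 ± 0.07, ICOSLG fell by 0.59 ± 0.09, NINJ1 fell by 0.49 ± 0.09 and TRIML2 fell by 0.45 ± 0.10. NINJ1 is named after its value was seen. The call of NCOA7 was lost without 3 of the 8 arrays and that of TRIML2 without 2, each left out singly. When only these groups were fitted, none of the 7 was called (adjusted p = 0.0615 for PLAT and ICOSLG, 0.0644 for PTP4A3, 0.182 for REL).

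Many of the genes had not returned to the starting level by 10 h. At 10 h in knockdown 50 of the 99 genes were still above 0 h, where 11.6% of all probe sets were called up, and 5 lay below it, where 13.8% were called down. The largest remainders were those of PTX3 (1.70 ± 0.16), STX11 (1.59 ± 0.13), RND1 (1.22 ± 0.17), ICOSLG (1.08 ± 0.10) and INHBA (0.90 ± 0.16). The genes below their start were RASSF5 (-0.41 ± 0.11), GATA6 (-0.38 ± 0.11), SH2D3A (-0.37 ± 0.11), NFATC1 (-0.35 ± 0.09) and IL34 (-0.34 ± 0.11). The call of SH2D3A was lost without knockdown 0 h replicate 4 (-0.27, adjusted p = 0.118) and that of NFATC1 without knockdown 0 h replicate 2 (-0.27, adjusted p = 0.0517). That of IL34 was lost without knockdown 0 h replicate 1 (-0.26, adjusted p = 0.135), without knockdown 0 h replicate 4 (-0.27, adjusted p = 0.101) and without knockdown 10 h replicate 1 (-0.30, adjusted p = 0.0525). The remaining 44 genes were not called either way. For MIR221 the difference was -0.93 ± 0.36 (adjusted p = 0.0587).

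Knockdown and Control differed in few of the 99 genes at 4 and 8 h, hours that the choice of genes did not use. At 4 h knockdown was lower than Control in 9 genes, where 0.732% of all probe sets were called lower, and higher in 2, where 1.11% were. With only the 4 h groups in the fit these counts were 2 lower and 0 higher. With replicate number as a fixed block in the fit both counts at 4 h were larger, as given further below. At 8 h knockdown was lower in 6, where 1.26% of all probe sets were called lower, and higher in none, where 1.62% were. With only the 8 h groups in the fit 2 were lower. The calls of 1 of the 11 genes at 4 h (NCR3LG1) and of 2 of the 6 at 8 h (NCR3LG1 and GCH1) held under every alternative tried. At an unadjusted p under 0.05, 37 of the 99 differed at 4 h and 25 at 8 h, beside 1726 and 2286 of all 14488 probe sets. The median difference of the 99 was -0.07 at 4 h, with 64 below 0, and -0.03 at 8 h, with 54 below 0. Of the 11 genes called at 4 h and the 6 called at 8 h, 3 were called at both hours: NCR3LG1, IL23A and GCH1.

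NCR3LG1 read 10.20, 10.13, 10.06 and 9.91 in Control and 9.18, 9.05, 9.13 and 9.12 in knockdown at 4 h, and 9.15, 8.96 and 8.92 in Control and 8.02, 8.26, 7.81 and 8.14 in knockdown at 8 h. The arms did not overlap at either hour, and the difference was -0.96 ± 0.12 at 4 h (limma adjusted p = 1.23e-05) and -0.95 ± 0.13 at 8 h (adjusted p = 5.39e-05). At 0, 2 and 10 h, where Control arrays had chosen the genes and nothing was tested, it was -0.31, -0.60 and -0.59. IL23A, the subunit of the IL23 cytokine that IL12 lacks, read 8.81, 8.17, 9.06 and 8.70 in Control and 8.19, 7.68, 7.71 and 7.76 in knockdown at 4 h, and 6.87, 7.02 and 7.30 in Control against 6.61, 6.64, 5.97 and 6.43 in knockdown at 8 h. Its arrays touched at 4 h, where knockdown replicate 1 lay above Control replicate 2, and did not overlap at 8 h. The difference of IL23A was -0.85 ± 0.15 at 4 h (adjusted p = 0.00123) and -0.65 ± 0.17 at 8 h (adjusted p = 0.0249). GCH1, the first enzyme of tetrahydrobiopterin synthesis, read 9.79, 10.06, 9.92 and 9.62 in Control and 9.38, 9.43, 9.61 and 9.33 in knockdown at 4 h, and 8.03, 8.21 and 8.26 in Control against 7.36, 7.44, 7.53 and 7.35 in knockdown at 8 h. The arms of GCH1 did not overlap at either hour, and the difference was -0.41 ± 0.11 at 4 h (adjusted p = 0.0351) and -0.75 ± 0.11 at 8 h (adjusted p = 0.000209).

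**Figure D4:**
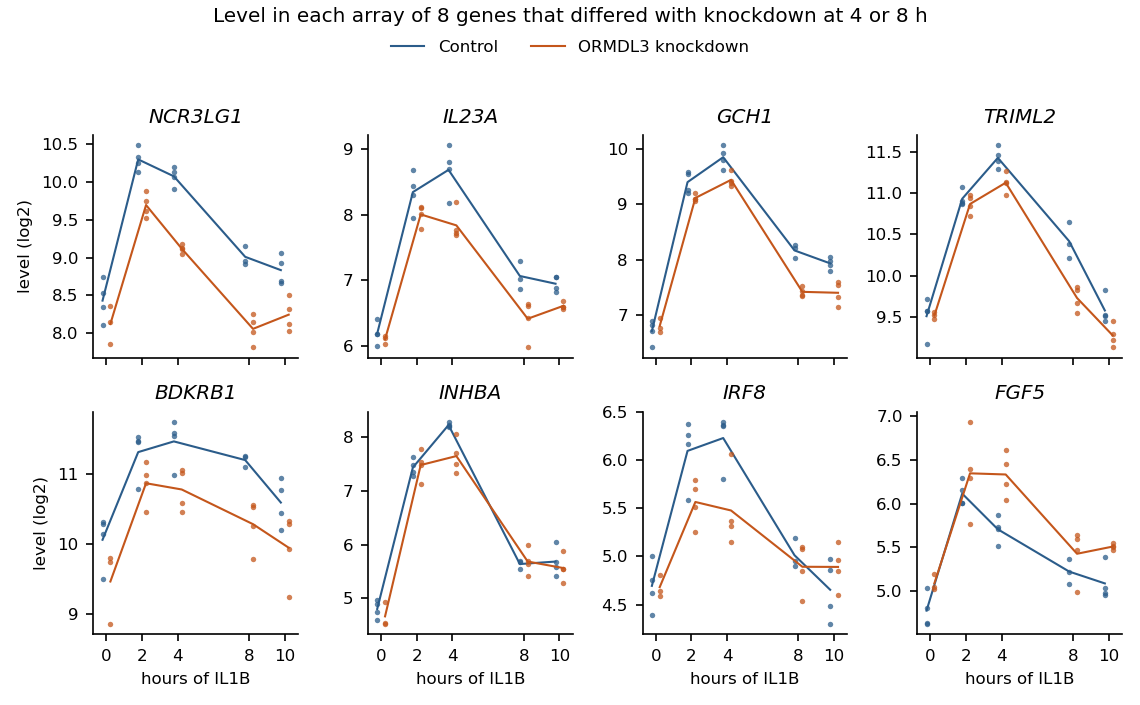
Log2 level in each array (points) of 8 early transient genes that differed between the arms at 4 or 8 h, against hours of IL1B, with lines through the group means of Control (blue) and ORMDL3 knockdown (orange). The arms of NCR3LG1 and GCH1 do not overlap at 4 or 8 h, and FGF5 is the only gene shown whose knockdown arrays lie higher at 4 h.

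At 4 h INHBA read 8.22, 8.28, 8.18 and 8.20 in Control and 7.70, 7.51, 7.32 and 8.05 in knockdown, a difference of -0.58 ± 0.15 (limma adjusted p = 0.028) without overlap. IRF8, an interferon regulatory factor best known from myeloid cells, read 6.36, 6.40, 6.37 and 5.80 in Control and 5.32, 6.07, 5.16 and 5.37 in knockdown, which overlapped, and differed by -0.75 ± 0.19 (adjusted p = 0.0243). FGF5, another fibroblast growth factor, was higher in knockdown, with 6.45, 6.22, 6.04 and 6.61 against 5.73, 5.71, 5.52 and 5.87 in Control and a difference of 0.63 ± 0.16 (adjusted p = 0.0279). The other genes called lower at 4 h were the splicing factor SRSF12 (-0.52 ± 0.14), PTGER4 (-0.45 ± 0.11), F3 (-0.43 ± 0.09) and MAP3K8 (-0.33 ± 0.09), and TMEM133 was called higher (0.38 ± 0.10). TMEM133 already stood higher in knockdown at 0 h, where nothing was tested. It read 8.86, 8.58 and 8.85 there against 8.37, 8.03, 8.05 and 8.32 in Control. At 8 h TRIML2 read 10.66, 10.21 and 10.38 in Control and 9.67, 9.87, 9.83 and 9.56 in knockdown, a difference of -0.69 ± 0.11 (adjusted p = 0.000393) without overlap. BDKRB1 read 11.25, 11.25 and 11.10 in Control and 10.52, 10.56, 10.26 and 9.78 in knockdown, also without overlap, and differed by -0.92 ± 0.26 (adjusted p = 0.0488). The BDKRB1 difference was -0.60 at 0 h and -0.45 at 2 h, where nothing was tested. NCOA7 differed by -0.27 ± 0.08 at 8 h.

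**Figure D5:**
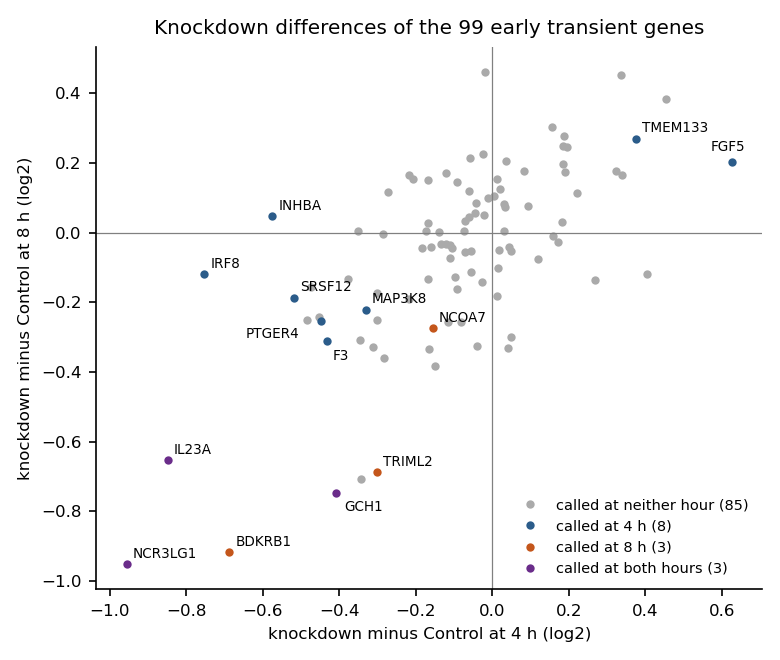
Knockdown minus Control (log2, group means) at 8 h against the same at 4 h for the 99 early transient genes; colours mark genes called at an adjusted p under 0.05 at 4 h, at 8 h, at both hours or at neither. NCR3LG1, IL23A and GCH1 are called at both hours and lie below 0 at both.

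Few of these knockdown calls were independent of single arrays. At 4 h NCR3LG1, IL23A and F3 kept their calls without any 1 of the 8 arrays, 3 of 11. The count of genes lower in knockdown was 3 without Control replicate 3, 4 without Control replicate 1, Control replicate 2 or knockdown replicate 4, and 5 without knockdown replicate 2. The count of genes higher was 0 without Control replicate 1, Control replicate 3 or knockdown replicate 4, and 1 without Control replicate 2, Control replicate 4, knockdown replicate 1 or knockdown replicate 3. At 8 h NCR3LG1, GCH1 and TRIML2 kept theirs, 3 of 6, and the count lower was 3 without Control replicate 2, Control replicate 3 or knockdown replicate 4. At 8 h 1 gene was called higher without Control replicate 1 and 2 without knockdown replicate 3. The call of BDKRB1 was lost without 6 of the 7 arrays, and at 4 h those of GCH1, IRF8 and MAP3K8 without 6 of the 8 and that of INHBA without 5, each left out singly. The change from 4 to 8 h was also compared between the arms. No gene was called in either direction, among the 99 or among all probe sets (0% up and 0% down by limma), and at an unadjusted p under 0.05 there were 9 of the 99 and 427 of all. For INHBA, called at 4 h and not at 8 h, that difference in change was 0.62 ± 0.22 (adjusted p = 1), and for IRF8 it was 0.63 ± 0.28 (adjusted p = 1).

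The same rule applied to the knockdown arrays took 137 genes, of which 91 were among the 99, 66.4% of that list and 91.9% of the 99. The 8 genes that it did not take, IL34, IRF8, LRRC1 and RIMKLB among them, all rose by less than 1 at 2 h in knockdown. For comparison, 121 genes rose by at least 1 at 2 h in Control and kept at least 0.5 times that rise at 10 h. In knockdown 120 of these 121 rose at 2 h, where 9.57% of all probe sets were called up. From 2 to 4 h 14 fell and 45 rose, where 6.81% and 7.82% of all probe sets did. At 10 h 117 were above 0 h, where 11.6% of all probe sets were. From 4 to 8 h in Control 70 of the 121 fell and 5 rose, where 10.6% and 10.5% of all probe sets did. Knockdown was lower than Control in 6 of the 121 at 4 h and in 13 at 8 h, and higher in 1 at each hour. Of all probe sets 0.732% and 1.26% were called lower at these hours, and 1.11% and 1.62% higher. Both sets were chosen on Control arrays and these counts are given side by side with no test.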

How the data were processed

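RNA of 38 samples of A549 cells was measured on 1-colour gene arrays. The deposited values are log2 levels per probe set, which the authors made with Affymetrix Power Tools and RMA, per the submitters' processing notes. Those notes also name limma 3.22.7 and the build hg19, without their roles, and the sources used here do not say how the 14488 probe sets were selected. Of these, 12132 carry 1 gene symbol, 628 several and 1728 none, from the platform annotation, and 12121 were matched by Entrez identifier. Each of 11893 genes was read from its probe set with the highest overall mean. A mean per group was fitted in R 4.3.3 with limma 3.58.1 (lmFit and eBayes) over all 38 arrays, with Benjamini-Hochberg adjustment over all probe sets and a call at an adjusted p under 0.05. The fit was tested on simulated data. Only arrays outside the choice of genes were tested: the knockdown arm, and Control at 4 and 8 h. The genes and lists were chosen with earlier results of these data known. Genes were named if they were among the 20 highest changes at 2 h, the 4 nearest to either side of a threshold, on a gene list, or among the 8 largest called changes of a comparison in each direction. A gene list among these is not reported here. Values in each array are given for the highest genes of each list and for the 5 largest knockdown differences at 4 and 8 h. Hours that the protocol names but the labels of these arrays do not hold were not analysed here. No array was left out, and no 2 arrays were identical. Replicate number was not a term of the model. Alternatives were the variance model, the arrays in the fit, a replicate block, quantile or median normalization, a filter on dim probe sets, array weights and leaving out arrays.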

Additional observations from a re-analysis of the deposited data

Results flagged for a closer look

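Among 224 groups of 4 arrays, taken over 27 genes given array by array and the median of the 99 genes, 8 held an array far from the other 3 by Dixon's criterion for 4 values (0.829). Chance flags about 1 in 20 such groups. TIFA read 9.18 in knockdown 2 h replicate 3, with the others between 9.01 and 9.03. TRAF1 read 8.03 in Control 2 h replicate 2, with the others between 8.28 and 8.31, and 5.82 in knockdown 8 h replicate 3, with the others between 6.25 and 6.28. STX11 read 5.65 in Control 0 h replicate 2, with the others between 6.30 and 6.42, and 8.08 in knockdown 10 h replicate 2, with the others between 8.49 and 8.55. IL23A, lower in knockdown at 4 h, read 8.19 in knockdown 4 h replicate 1, with the others between 7.68 and 7.76. IRF8, also lower there, read 5.80 in Control 4 h replicate 4, with the others between 6.36 and 6.40. BDKRB1 read 10.78 in Control 2 h replicate 4, with the others between 11.46 and 11.53.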

How the results depend on the processing

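No named gene that was called in a comparison changed direction in it under any alternative. Counts of genes could only stay, grow or shrink. The variance trend with robust option and quantile normalization left every count within 1.5 times. With only the groups compared in the fit, genes raised and lowered from 8 to 10 h in knockdown numbered 0 and 0, genes higher and lower in knockdown at 4 h 0 and 2, and genes lower at 8 h 2. Replicate numbers were not taken to pair the arrays, since not every same-number correlation of deviations between groups exceeded 0.1 (107 of 162 did, from -0.29 to 0.62, median 0.18). Different numbers gave 104 of 487 and a median of -0.06, and 28 of 38 arrays correlated best with their own number, a hint from the data of a shared effect. With the number as a fixed replicate block, 4 genes were higher and 15 lower in knockdown at 4 h, 1 was higher at 8 h and 8 fell from 8 to 10 h, and with a random block (correlation 0.14) 1 was higher at 8 h. With array medians subtracted 3 were higher at 8 h. Array weights left 1 gene higher at 4 h. Without the arrays numbered 4, 0 were higher at 4 h and 1 rose from 8 to 10 h. The cause of these differences was not tested. Leaving out probe sets below the median level removed 42 of the 99 genes, so fewer could be called. Of the 57 left, 57 rose at 2 h and 57 fell from 2 to 10 h in knockdown, 33 were above and 2 below 0 h at 10 h, 20 fell and 5 rose from 2 to 4 h, and 52 fell from 4 to 8 h in Control and 52 in knockdown. In that setting 1 was higher and 3 lower in knockdown at 4 h. With 1 array left out, genes lower in knockdown numbered 3 to 10 at 4 h and 3 to 6 at 8 h, genes higher 0 to 3 at 4 h and 0 to 2 at 8 h, and genes raised from 8 to 10 h 1 to 2. With a change at 10 h below 0.25 times that at 2 h 41 genes were taken, and with a change at 2 h of at least 1.5, 50 were. With 3 or 4 arrays a group, small differences between the arms could not be resolved.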

Other observations

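Among the names left out of the 99 genes, 26 measured AP-1 subunits, ATF3, MAP kinase phosphatases and Krueppel-like factors gave 14 rises and 4 falls at 2 h in knockdown by limma at an adjusted p under 0.05. Of these 26, 6 met both conditions on the Control arrays: ATF3, DUSP8, KLF6, DUSP6, FOSL1 and KLF4. DUSP10 and DUSP16, phosphatases of the JNK and p38 kinases, rose by 2.16 and 1.73 at 2 h in knockdown. In Control they were 1.99 and 1.77 above 0 h at 2 h and still 1.32 and 1.89 above it at 10 h. FOS, the archetypal immediate-early AP-1 subunit, fell at 2 h in knockdown (-1.35, adjusted p = 2.05e-07), and its change from 0 h in Control was -1.46 at 2 h and -1.06 at 10 h.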
